A study of Drosophila melanogaster with 6 samples.

Results

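The genes described here encode subunits of the mitochondrial respiratory chain and the ATP synthase in L3 neurons of the fruit fly. They are 80 of the 9755 genes whose mean normalized count was above 0 among the 13727 genes of the authors' deposited table. They were chosen by name, as genes whose symbol starts with mt:, ND-, COX and a digit, UQCR- or ATPsyn. Of the 80, 13 lie on the mitochondrial genome and 67 in the nucleus. Most nuclear members carry an older symbol in the deposited table, and 62 members were found only through their FlyBase identifier. Another 13 matching genes had a mean normalized count of 0 and are not members.

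L3 neurons receive photoreceptor input in the lamina, the outermost neuropil of the fly optic lobe. Fluorescently labelled cells were sorted as L3 from pupal optic lobes at 24 h APF (after puparium formation), and their RNA was sequenced. WT comprised 3 samples on an FRT40 chromosome, where FRT is a recombination site, and dFezf1 comprised 3 samples bearing a mutant allele of the transcription factor gene dFezf (symbol erm). The titles date the WT samples to 28, 29 and 30 November and the dFezf1 samples to 12, 13 and 14 December, so date and genotype cannot be told apart. Values per library were not used here, because their column codes match no sample label. Each level below is therefore the authors' mean for a genotype and has no SD. Its unit is unnamed and behaves as a count divided by transcript length. Each log2 fold change is the authors' shrunken estimate for dFezf1 against WT with its standard error (SE), and called means an adjusted p under 0.05 by the authors' deposited table. The transcript of erm itself had mean levels of 55.1 in WT and 49.2 in dFezf1 there, and this level does not check the labels, since a mutation need not lower it.

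Oxidative phosphorylation uses electrons from nutrients to pump protons across the inner mitochondrial membrane, and the ATP synthase makes ATP from the proton gradient. Complexes I, III and IV pump protons, and the ATP synthase is complex V. Each of these complexes joins subunits made in the mitochondrion from mitochondrial DNA with subunits encoded in the nucleus and imported. Mitochondrial messenger RNAs are cut from long transcripts of both DNA strands and carry poly(A) tails. Neurons depend on oxidative phosphorylation for ion pumping and synaptic transmission.

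Several transcripts of the mitochondrial genome rose in dFezf1, while no nuclear member was called. By the authors' deposited table the genes mt:ATPase6, mt:CoI, mt:CoII, mt:Cyt-b and mt:ND5 rose, 5 of 13, and 0 of 13 fell. Among all 9387 tested genes 4.33% were called higher and 2.49% lower. At an unadjusted p under 0.05 there were 6 of 13 mitochondrial genes, mt:CoIII being the sixth. Of the nuclear members 0 of 65 tested were called in either direction by the authors' deposited table, where 6.82% of tested genes were called. That rate is not matched for exon length, and most nuclear members are short. Of 731 well-counted genes of up to 1000 bases, 8 were called higher and 12 lower. Of 1081 such genes over 5000 bases, 95 were called higher and 27 lower. Whether 0 calls is low for genes as short as these members was not tested. At an unadjusted p under 0.05 the count was 2 of 65 nuclear members, against 14.2% of all tested genes, and no other tool was run. In bulk RNA, fewer cells of a type and less RNA per cell cannot be told apart.

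Cytochrome c oxidase, complex IV, takes its catalytic core from mt:CoI, mt:CoII and mt:CoIII. The mean level of mt:CoI per the authors' deposited table was 117 in WT and 374 in dFezf1, a ratio of 3.21. For mt:CoII the authors' deposited table gives mean levels of 61.9 in WT and 188 in dFezf1, and for mt:CoIII 50.0 and 123. All 3 were thus higher in the dFezf1 mean, by similar factors. mt:CoI rose by 1.63 ± 0.46 (SE) on the log2 scale with an adjusted p of 0.00689 by the authors' deposited table. The rise of mt:CoII there was 1.63 ± 0.48 with an adjusted p of 0.0127. mt:CoIII was not called: its log2 fold change per the authors' deposited table was 1.26 ± 0.49 with an adjusted p of 0.124, although the 95% interval of the shrunken value, 0.30 to 2.23, lay above 0.

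mt:ATPase6 and mt:ATPase8 encode membrane subunits of the ATP synthase, the former lining its proton path. In the authors' deposited table mt:ATPase6 had mean levels of 57.4 in WT and 197 in dFezf1. It rose by 1.78 ± 0.45 in log2 units with an adjusted p of 0.00168, the smallest among the 13, by the authors' deposited table. mt:ATPase8 had mean levels of 169 in WT and 429 in dFezf1 and a log2 fold change of 0.97 ± 0.75 per the authors' deposited table, with an adjusted p of 0.617. These levels rest on fewer reads, as its mean normalized count was 131 in that table against 8476 for mt:ATPase6. Its exon length is 162 bases, and 1 unit of its level stood for 0.440 normalized counts, against 66.7 for mt:ATPase6. Among the 13 genes mt:ATPase8 ranked 1 by level but 6 by mean normalized count per kilobase, where mt:CoI was the highest with 15377.

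mt:Cyt-b is the subunit of complex III made in the mitochondrion and holds its quinone sites. Its mean level by the authors' deposited table was 6.53 in WT and 23.8 in dFezf1. With an adjusted p of 0.0120 it rose by 1.83 ± 0.54 in log2 units per the authors' deposited table.

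The 7 mitochondrial subunits of complex I form its proton-pumping membrane arm, and their transcripts were scarce in both genotypes. WT mean levels per the authors' deposited table ran from 0.0494 for mt:ND5 to 1.06 for mt:ND4L, and dFezf1 levels from 0.0877 for mt:ND4L to 2.15 for mt:ND4. Each of these levels was below that of mt:Cyt-b in the same genotype. mt:ND5 went from a mean level of 0.0494 in WT to 0.937 in dFezf1 by the authors' deposited table, at a mean normalized count of 104. It rose by 2.65 ± 0.79 in log2 units with an adjusted p of 0.00806 per the authors' deposited table, and the 95% interval ran from 1.11 to 4.19. Whether all dFezf1 libraries share this rise is not known.

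The other complex I transcripts of the mitochondrion were not called. mt:ND4 had mean levels of 0.755 in WT and 2.15 in dFezf1 and a log2 fold change of 1.24 ± 0.74 by the authors' deposited table, with an adjusted p of 0.457. For mt:ND1 the authors' deposited table gives mean levels of 0.367 and 0.775 and a log2 fold change of 0.88 ± 0.80. mt:ND2, mt:ND3 and mt:ND6 had mean normalized counts of 12.6, 6.60 and 3.66 per the authors' deposited table, too few for a precise fold change. Their log2 fold changes by the authors' deposited table were 0.65 ± 0.76, 0.29 ± 0.61 and 0.16 ± 0.58. mt:ND4L was the single member of the 13 with a value below 0, at -0.38 ± 0.58 and a mean normalized count of 2.23 per the authors' deposited table. Its mean levels were 1.06 in WT and 0.0877 in dFezf1 by the authors' deposited table, and its short exon of 291 bases gives a level from few reads.

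**Figure D1:**
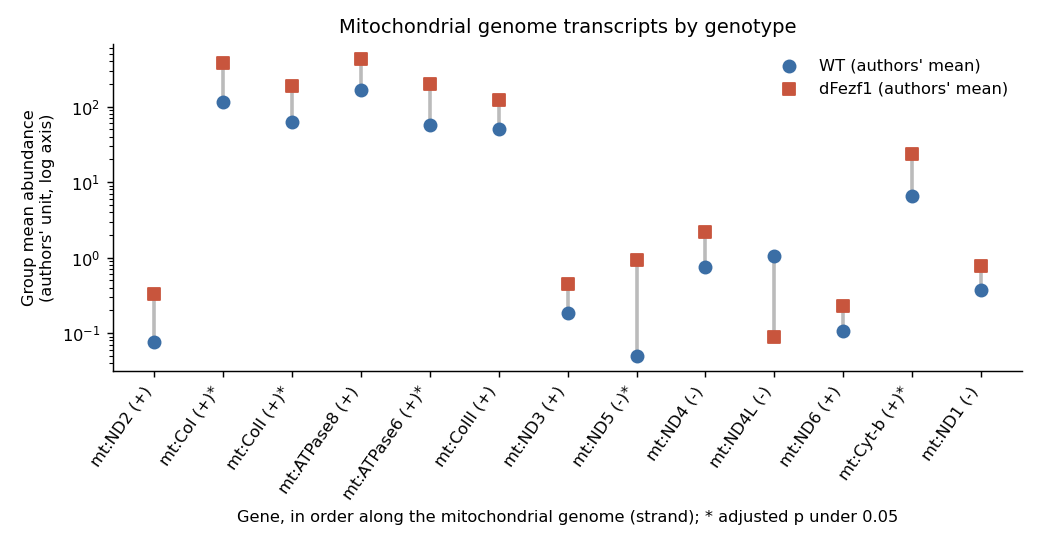
Authors' mean abundance of the 13 mitochondrial genes in WT (circles) and dFezf1 (squares), on a log axis, in gene order with the coding strand in brackets; each point is 1 group mean with no SD, and an asterisk marks an adjusted p under 0.05. The dFezf1 mean is the higher one in every gene except mt:ND4L, and 6 genes from mt:Cyt-b upward stand well above the 7 complex I genes.

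Over the 13 mitochondrial genes the median log2 fold change was 1.24, against 0.03 over all tested genes. The direction was upward for 12 of the 13. Among the 8 at or above a mean normalized count of 100 it was upward for all 8, from 0.97 to 2.65, and the called genes are among these 8. The 5 genes under that count had fold changes from -0.38 to 0.88 with a median SE of 0.61, and no difference was detectable for them at these counts. The ratio of the 2 group means, which is not shrunken, had a median of 1.51 on the log2 scale over the 13 genes and of -0.07 over the 7970 tested genes above 0 in both groups. Apart from mt:ND5 and mt:ND4L, the linear ratio lay between 2.11 for mt:ND1 and 4.31 for mt:ND2. For mt:ND5 it was 19.0, and the shrunken fold change is smaller.

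**Figure D2:**
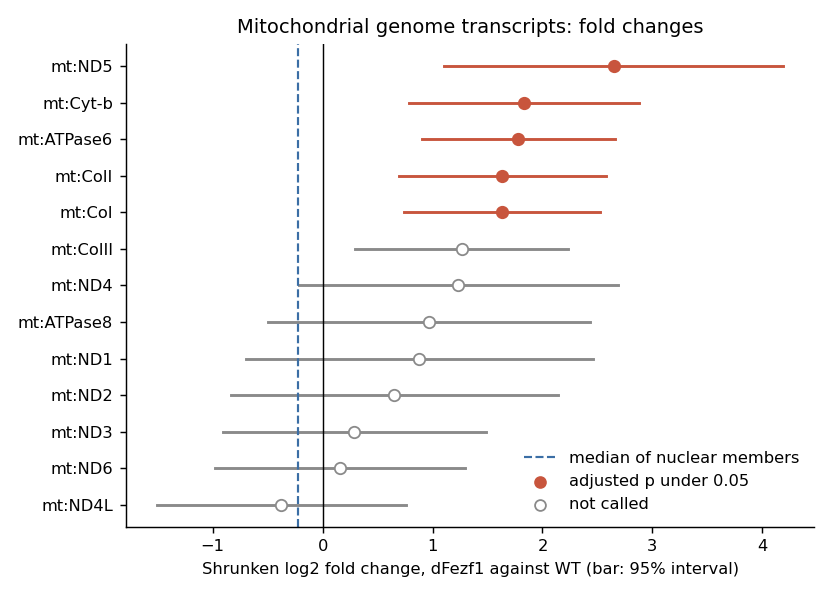
Shrunken log2 fold change of each mitochondrial gene, dFezf1 against WT, with the 95% interval from the deposited SE; filled points have an adjusted p under 0.05 and the dashed line is the median of the nuclear members, -0.23. The 5 called genes lie between 1.63 and 2.65, and the intervals of 7 of the 8 others reach below 0, all but that of mt:CoIII.

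The abundant mitochondrial transcripts sit together on the plus strand. By the mitochondrial genome positions of the authors' deposited table mt:CoI (1474 to 3009), mt:CoII (3083 to 3767), mt:ATPase8 (3907 to 4068), mt:ATPase6 (4062 to 4736) and mt:CoIII (4736 to 5524) follow each other, with transfer RNA genes in several of the gaps. These neighbours were the 5 most abundant of the 13 in both genotypes by level. mt:Cyt-b (10498 to 11634) is also on the plus strand. The plus strand holds 9 of the genes, with a summed level of 461 in WT and 1336 in dFezf1, of which 4 were called higher. On the minus strand are mt:ND5, mt:ND4, mt:ND4L and mt:ND1, with summed levels of 2.23 and 3.95 and 1 gene called, mt:ND5. The median log2 fold change was 1.26 on the plus strand and 1.06 on the minus strand, and the difference was not tested.

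Some of these genes share bases. mt:ATPase8 and mt:ATPase6 overlap by 7 bases, mt:ATPase6 and mt:CoIII by 1, and mt:ND4 and mt:ND4L by 1, and transcripts that span such pairs are known in animals. How reads across these joins were assigned is not stated. The library chemistry named in the labels does not mark the strand, so reads from opposite strands at one position cannot be told apart.

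The mitochondrial genes were a small part of the summed level, which is not a share of reads. By mean normalized count mt:CoI was the highest of all members, at 23620 against 19158 for ATPsynC. The summed level of the mitochondrial genes was 463 in WT and 1340 in dFezf1, which is 0.275% and 0.865% of the sum over all genes. Without mt:ATPase8 the shares were 0.175% and 0.588%. The 67 nuclear members summed to 11127 in WT and 9314 in dFezf1, or 6.61% and 6.01%. For each 100 units of nuclear level there were 4.17 units of mitochondrial level in WT and 14.4 in dFezf1. These sums come from the authors' group means and carry no error.

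Nuclear subunits were abundant in both genotypes, and most had slightly lower levels in dFezf1. Standard subunits, which exclude the paralogs whose symbol adds an L, numbered 59, and all 59 were tested. Their median level was 147 in WT and 104 in dFezf1. Log2 fold changes of these 59 ran from -0.85 to 0.37 with a median of -0.26, and 46 of them were below 0. Over all tested genes 48.5% of fold changes were below 0. The smallest adjusted p among these 59 was 0.320 per the authors' deposited table, for ND-B22. With a median SE of 0.46, a fall of the median size is smaller than the error of a single gene.

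Complex I contributed 34 standard nuclear subunits, 28 of them with a fold change below 0, and their median was -0.33. ND-AGGG and ND-MWFE, both accessory subunits, were the most abundant in WT, and ND-MWFE was so in dFezf1. ND-AGGG had mean levels of 411 in WT and 277 in dFezf1 and a log2 fold change of -0.51 ± 0.49 by the authors' deposited table. For ND-MWFE the authors' deposited table gives mean levels of 409 and 343 and a log2 fold change of -0.21 ± 0.59. ND-SGDH, another accessory subunit, had the lowest fold change of all members, -0.85 ± 0.46, with mean levels of 149 in WT and 82.9 in dFezf1 and an adjusted p of 0.392 per the authors' deposited table. ND-B22 followed with mean levels of 158 and 81.0 and a log2 fold change of -0.80 ± 0.40 by the authors' deposited table. Its unadjusted p was 0.0427.

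The catalytic core of complex I, which carries electrons from NADH to quinone, includes 7 nuclear subunits. These are ND-75, ND-51, ND-49, ND-30, ND-24, ND-23 and ND-20, by comparison with the mammalian complex. Their WT levels were lower than those of most accessory subunits, with a median of 32.9 against 113 for the 27 accessory subunits. The core genes are longer, with a median exon length of 1336 bases against 768, and the part of length in this gap was not tested. ND-49 was the lowest of the 7, with mean levels of 2.44 in WT and 1.57 in dFezf1 per the authors' deposited table. ND-20 was the highest in WT, with a mean level of 61.3 against 29.4 in dFezf1, and had a log2 fold change of -0.73 ± 0.75 by the authors' deposited table. All 7 fold changes were below 0, from -0.73 to -0.06, and none was called.

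One accessory subunit of complex I was nearly undetected. ND-B8 had a mean normalized count of 7.27, a mean level of 0.80 in WT and was listed at 0 in dFezf1 per the authors' deposited table. Its adjusted p was 0.511 by the authors' deposited table, so no difference was detectable at this count. Every other standard nuclear subunit had a mean normalized count at or above 100.

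Nuclear fold changes of complex III lay on both sides of 0. Its 6 standard subunits ran from -0.26 to 0.27 with a median of -0.09, and none was called. UQCR-11, the hinge subunit, was the most abundant, with mean levels of 569 in WT and 487 in dFezf1 per the authors' deposited table. UQCR-6.4 had mean levels of 230 and 288 and a log2 fold change of 0.27 ± 0.46 by the authors' deposited table. UQCR-C2, a core protein on the matrix side, had a log2 fold change of -0.26 ± 0.36 per the authors' deposited table.

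Complex IV had 8 standard nuclear subunits, which surround the catalytic core, with fold changes from -0.49 to 0.12 and a median of -0.05. COX8 was the most abundant of all members, with mean levels of 814 in WT and 763 in dFezf1 and a log2 fold change of -0.07 ± 0.44 by the authors' deposited table. COX7B came next in WT with 612, against 403 in dFezf1, and had a log2 fold change of -0.49 ± 0.55 per the authors' deposited table. COX6B had the highest fold change of complex IV, 0.12 ± 0.29, with mean levels of 240 and 253 by the authors' deposited table. The 95% interval of COX6B ended at 0.70, below the values of mt:CoI, mt:CoII and mt:CoIII. The interval of mt:CoI began at 0.74, but those of mt:CoII and mt:CoIII began at 0.69 and 0.30 and so overlapped that of COX6B.

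The ATP synthase had 11 standard nuclear subunits, 10 of them with a fold change below 0, and a median of -0.36. ATPsynF and ATPsynC, the latter forming the rotating ring in the membrane, were the most abundant. In the authors' deposited table ATPsynF had mean levels of 547 in WT and 407 in dFezf1, and ATPsynC 435 and 366. ATPsynbeta, the catalytic subunit, had mean levels of 221 and 140 and the lowest fold change of the complex, -0.55 ± 0.37, with an adjusted p of 0.535 per the authors' deposited table. ATPsynE was the exception, with mean levels of 128 and 158 and a log2 fold change of 0.37 ± 0.37 by the authors' deposited table.

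**Figure D3:**
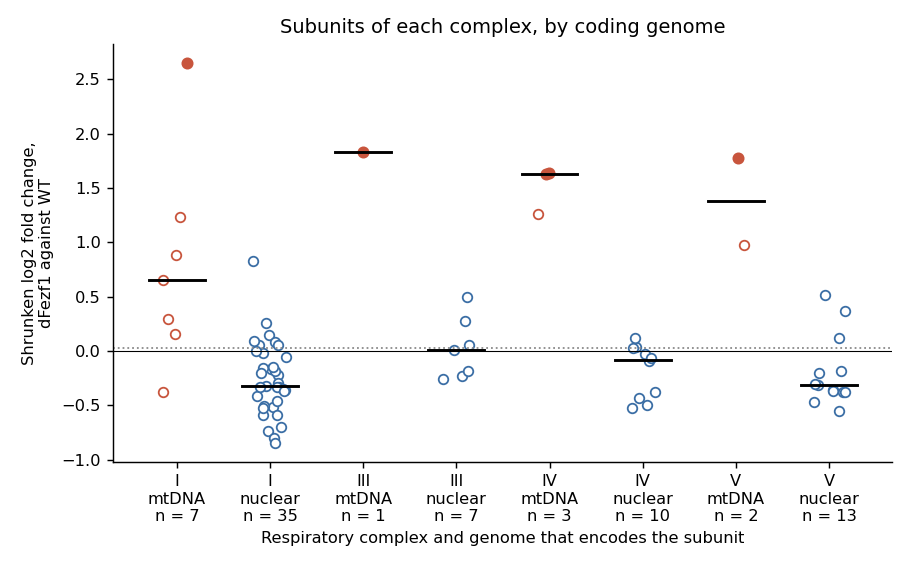
Shrunken log2 fold change of each tested subunit, dFezf1 against WT, by complex and by the genome that encodes it; filled points have an adjusted p under 0.05, bars are medians, the dotted line is the median of all tested genes, and points are spread sideways for legibility. The mitochondrial medians are 0.65, 1.83, 1.63 and 1.37 for complexes I, III, IV and V, and the nuclear medians are -0.33, 0.01, -0.08 and -0.32, L paralogs included.

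In each complex the mitochondrial subunits therefore had a higher median fold change than the nuclear subunits. In complex IV the 3 mitochondrial values, from 1.26 to 1.63, lay above all 10 tested nuclear values, the highest of which was 0.12. The value of mt:Cyt-b lay above all 7 of complex III, and those of mt:ATPase6 and mt:ATPase8 above all 13 of complex V. In complex I the 2 sets overlapped, with mt:ND4L, mt:ND6, mt:ND3 and mt:ND2 within the nuclear range of -0.85 to 0.83. The upper end of that range is the L paralog ND-51L1, listed at 0 in WT. The 34 standard subunits reached only 0.26, below mt:ND3 and mt:ND2. No test compared the 2 genomes, because subunits are not replicates of a condition.

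**Figure D4:**
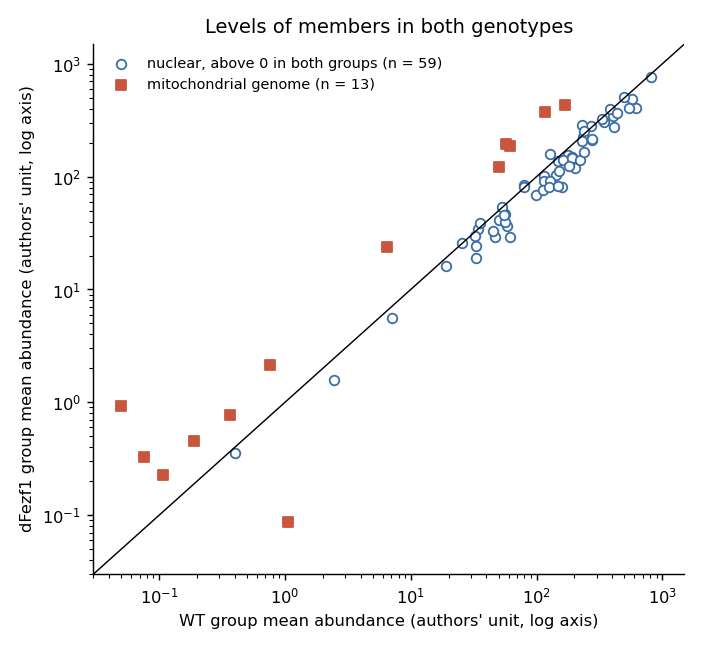
Authors' mean abundance in dFezf1 against WT on log axes, for the 59 nuclear members above 0 in both groups (open circles) and the 13 mitochondrial genes (squares); the line marks equal levels. Mitochondrial genes lie above the line at all levels except mt:ND4L, and most nuclear members lie at or just under it.

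Several nuclear subunits have paralogs named with an added L, many of which are known from the fly testis. Of the 21 that matched, 13 had a mean normalized count of 0 and 8 were members. The 8 had a summed level of 2.25 in WT and 1.54 in dFezf1, against 11125 and 9313 for the standard subunits. ND-51L1 came nearest to a call. It was listed at 0 in WT and at a mean level of 0.745 in dFezf1, with an adjusted p of 0.0523 per the authors' deposited table. Its standard partner ND-51 had mean levels of 32.9 and 19.2 by the authors' deposited table. COX7CL had a mean level of 1.63 in WT and was listed at 0 in dFezf1, with a mean normalized count of 8.75 and an adjusted p of 0.480 per the authors' deposited table. UQCR-11L and ATPsynepsilonL were listed at 0 in WT, and COX4L, COX7AL2 and ND-24L at 0 in dFezf1, each with a mean normalized count under 2 by the authors' deposited table. ATPsynbetaL was above 0 in both groups, at mean levels of 0.401 and 0.358 per the authors' deposited table.

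Fold change moved with exon length across genes, and the members are short. Of 5861 tested genes at or above a mean normalized count of 100, 5782 had an annotated exon length. Over these, exon length and log2 fold change had a Spearman correlation of 0.30 across genes, which share the same 6 libraries. Genes of up to 1000 bases had a median log2 fold change of -0.17, and those over 5000 bases one of 0.45. Calls were also rarer among short genes: 8 higher and 12 lower of 731 up to 1000 bases. From 1000 to 1500 bases they were 11 and 13 of 837, and from 1500 to 2000 bases 9 and 12 of 810. Over 5000 bases they were 95 and 27 of 1081. The nuclear members have a median exon length of 842 bases, and the 39 of up to 1000 bases at that count had a median of -0.21. The mitochondrial genes are as short, with a median of 789 bases, and the 4 of up to 1000 bases at that count had a median of 1.45. In this class the nuclear median thus lay close to that of all genes, while the mitochondrial one lay above it. From 1000 to 1500 bases the nuclear median was -0.32 against -0.20 for all genes, and from 1500 to 2000 bases -0.21 against -0.18. Within the 58 nuclear members at that count, exon length and fold change had a Spearman correlation of -0.23, opposite in sign to that over all genes. The part of length in either result was not tested.

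**Figure D5:**
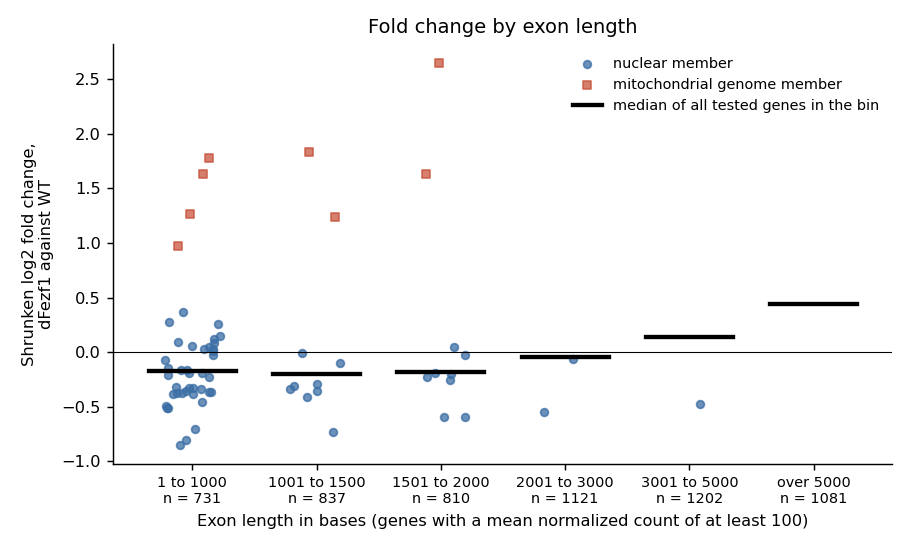
Shrunken log2 fold change of members at or above a mean normalized count of 100, by exon length, with nuclear members as circles and mitochondrial genes as squares; black bars are medians of all tested genes at that count in the length class, whose number is given as n. The bars lie between -0.20 and -0.17 in the 3 shortest classes and reach 0.45 in the longest, the nuclear members scatter around the bars of the shorter classes and the 8 mitochondrial genes lie at 0.97 or above.

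Other parts of the same pathway were counted from 7 lists. With 6.82% of all tested genes called, lists this short would hold few calls at the background rate, so a count of 0 in any of them is not a result about the list. Complex II, which is encoded wholly in the nucleus, had 0 of 5 tested genes called, and 0 at an unadjusted p under 0.05. SdhD, a membrane anchor, had a log2 fold change of -0.66 ± 0.38 and SdhA, the flavoprotein, one of 0.46 ± 0.55 by the authors' deposited table. Subunits and electron carriers whose names the rule does not reach, among them levy and cype of complex IV and blw of the ATP synthase, had 0 of 10 called and a median of -0.09, with 0 at an unadjusted p under 0.05. Neb-cGP was the most abundant of these, with mean levels of 587 in WT and 535 in dFezf1 per the authors' deposited table. Assembly factors, of which Nubpl was the most counted, had 0 of 13 called and a median of -0.06, with 1 at an unadjusted p under 0.05, Sdhaf3, at a log2 fold change of -1.56 ± 0.71 by the authors' deposited table.

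A list drawn up for the copying, transcription and stability of mitochondrial DNA and RNA had 0 of 16 called. Its median was 0.06, with 0 at an unadjusted p under 0.05. It includes swa, at a mean normalized count of 7.94, whose place in the list was not checked. TFAM, which packages and helps transcribe mitochondrial DNA, had mean levels of 11.7 in WT and 10.7 in dFezf1 by the authors' deposited table. The mitochondrial RNA polymerase gene PolrMT had a log2 fold change of 0.14 ± 0.80 per the authors' deposited table, and the single-strand binding protein gene mtSSB, the most counted of the list, one of -0.33 ± 0.53. Regulators, dynamics and quality control genes had 0 of 20 called and a median of 0.07, with 1 at an unadjusted p under 0.05. The outer membrane channel gene porin, often used as a gauge of mitochondrial content, had mean levels of 125 and 92.7 and a log2 fold change of -0.38 ± 0.31 by the authors' deposited table.

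Carbon metabolism had 1 call in each of 2 lists, near the 6.82% called over all tested genes. In the tricarboxylic acid cycle list 1 of 15 tested genes was higher and 2 had an unadjusted p under 0.05. The called gene was muc, a subunit of pyruvate dehydrogenase, and the list's median was -0.01. muc rose by 2.47 ± 0.53 in log2 units with an adjusted p of 9.99e-05 per the authors' deposited table, in a row that carries no symbol, so its identity rests on the identifier alone. The glycolysis list had 1 of 12 higher, the pyruvate kinase gene PyK, and a median of 0.06, with 2 at an unadjusted p under 0.05. PyK was listed at 0 in WT and at a mean level of 2.01 in dFezf1, with an adjusted p of 0.00305 by the authors' deposited table. Gapdh2, the most counted glycolytic gene, had mean levels of 242 and 168 and a log2 fold change of -0.50 ± 0.39 per the authors' deposited table.

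Neuronal transcripts were abundant in both groups, and 7 of 8 neuronal markers had a fold change above 0, as most mitochondrial genes did. The neuronal protein gene elav had mean levels of 52.6 in WT and 63.6 in dFezf1 and the active zone gene brp 49.5 and 103 by the authors' deposited table. Of 8 neuronal markers 1 was called higher, para, a sodium channel gene, with a log2 fold change of 1.45 ± 0.45 by the authors' deposited table. At an unadjusted p under 0.05 there were 5 of the 8, against 14.2% of all tested genes. These markers are long, with a median exon length of 9561 bases. The list's median was 0.89 and its summed level 198 in WT and 315 in dFezf1. Their part in the mitochondrial result was not tested. Muscle is rich in mitochondria, and its 8 markers summed to 1.21 in WT and 1.16 in dFezf1, with wupA and TpnC4 at 0 in both groups and 0 of 4 tested called (0 at an unadjusted p under 0.05). Glial markers had 1 of 10 called higher, gcm, with 2 at an unadjusted p under 0.05, and summed to 6.80 and 10.9. gcm was listed at 0 in WT at a mean normalized count of 22.0, and its log2 fold change was 0.54 ± 0.59 by the authors' deposited table. Fold changes of the glial markers were above 0 in 7 and below 0 in 3, and that of repo was 0.16 ± 0.68. Much of the glial sums came from Gs2, at 0.262 in WT and 4.08 in dFezf1, and Indy, at 3.98 and 1.23. The log2 fold change of Gs2 was 1.82 ± 0.80 with an adjusted p of 0.119 by the authors' deposited table. That of Indy was -0.67 ± 0.79, and neither was called. Photoreceptor markers had 0 of 7 called (1 at an unadjusted p under 0.05) and summed to 10.5 and 17.7, with ninaE, trp and Arr2 at 0 in both. Most of these sums came from norpA alone, at 9.55 in WT and 15.9 in dFezf1. Blood cell markers had 1 of 3 called higher, ush, with 1 at an unadjusted p under 0.05, and summed to 5.09 and 10.8, with He, NimC1 and eater at 0 in both. Nearly all of these sums came from Pxn, at 4.37 in WT and 4.62 in dFezf1, and ush, at 0.712 and 6.16. Fat body markers had 1 of 6 called higher, Fbp2, with 1 at an unadjusted p under 0.05, and summed to 0.373 and 2.95. Testis markers had 0 of 6 called (0 at an unadjusted p under 0.05) and summed to 2.74 and 1.98, with dj and Mst84Da at 0 in both. The part of these cell types in the mitochondrial result was not tested.

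Overlapping genes touch some nuclear members. By gene start and end per the authors' deposited table, 27 of the 67 overlap another gene with a mean normalized count above 0, and 3 overlap a called one. ND-15 overlaps Pus10, ND-B15 overlaps Trs31 and COX7CL overlaps sel. None of these 3 members was called by the authors' deposited table.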

How the data were processed

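RNA of sorted L3 neurons was profiled in 6 samples, 3 WT and 3 dFezf1, grouped by the genotype labels. Per the labels' protocols total RNA was column-purified and libraries followed Smart-seq2 with a Nextera kit. Build BDGP6 and the tools STAR, Salmon, DESeq2 and FastQC appear, without version or role, per the submitters' processing notes. Per the file headers the authors' deposited comparison holds a mean normalized count per gene and group means (both a signal that is never negative), a log2 fold change with its SE, a test statistic (a score), and p-values with adjusted p-values. The 12 library columns of the 2 deposited tables match no sample label and were not used, so depth per library, replicate spread and the intended count tests are not given.

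Members were found by identifier through a gene name table. Nuclear starts equalled those of the BDGP6 annotation in 67 of 67 members, and mitochondrial starts differed by up to 7 bases in 6 of 13. Exon length is the union of annotated exons. Against it, mean normalized count per unit of group mean had a Spearman correlation of 0.951 over 5738 genes, as for a length-scaled level. 95% intervals are normal, from the deposited SE. Of 200 list symbols 32 matched no gene. Adjustment and recentring steps were tested on simulated data. Python 3.11.15, pandas 2.3.3, numpy 2.4.6, SciPy 1.17.1 and matplotlib 3.10.9 were used.

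Members, lists and tests were chosen with earlier results of these data known. Named nuclear members were, per complex, those called, the 2 most abundant, the largest rise and fall, and those at 0 in one group, and for lists the called and the most abundant genes. ND-B22, ND-51, ND-49, ND-20, ATPsynE, ATPsynbetaL, ND-15 and ND-B15, the core subunit group and the length classes were named after their values were seen. So were Sdhaf3, SdhA, levy, cype, blw, TFAM, PolrMT, elav, brp, Gs2 and repo. The alternatives were a threshold of 0.01, no filter on low counts and a mean normalized count at or above 100. Others were genes above 0 in both groups, recentring on the median of all tested genes, and standard subunits alone. A further one was an interval that excludes 0, required on top of the adjusted p.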

Additional observations from a re-analysis of the deposited data

How the results depend on the processing

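Of the mitochondrial genes, 5 were called in the main comparison and 3 at an adjusted p under 0.01, where mt:CoII (0.0127) and mt:Cyt-b (0.0120) no longer passed. The stricter threshold itself makes this change. The same 5 genes, 5 of 5 shared, were called without the low-count filter and at or above a mean normalized count of 100. They were also called above 0 in both groups and after recentring by 0.03 on the log2 scale. An interval that excludes 0, required on top of the adjusted p, kept the same 5 and could only have removed calls. All these settings reuse the authors' deposited statistics, so the shared calls are not independent support. Of the nuclear members 0 were called in the main comparison and under the 4 alternatives that could have added a call: no low-count filter, a mean normalized count at or above 100, above 0 in both groups, and recentring. The threshold of 0.01, the interval that excludes 0 and the 59 standard subunits alone could not add one. The adjusted p of ND-51L1 ranged from 0.0523 to 0.0590 where it could be computed. Leaving out each replicate and another normalization were not run, since library columns could not be matched to samples. No paired analysis was possible because the columns used carry no replicate numbers. Low counts limit mt:ND2, mt:ND3, mt:ND4L, mt:ND6 and ND-B8, and the group means allow no replicate spread.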
